A study of Mus musculus with 14 samples.

Results

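The 5954 chromatin contacts described here are pairs of 10 kb genome bins that were called in every one of 4 conditions: neural precursor cells (NPCs) and embryonic stem cells (ESCs), each with and without auxin, which removes the architectural protein CTCF. They were chosen by the calls themselves: a pair was taken where exactly the same bins appeared in all 4 loop lists made with the caller MAPS. They are 4.34% of the 137221 pairs found in any of these lists. The calls, and with them the contact counts, ratios to background and false discovery rates (FDR) behind them, therefore selected the pairs and are given as description, with no test.

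The assay was H3K4me3 PLAC-seq, in which DNA ends that lie close together in the nucleus are ligated, fragments carrying the promoter mark H3K4me3 are immunoprecipitated, and the joined ends are sequenced. All cells derived from the F123 mouse ESC line in which CTCF is fused to an auxin-inducible degron (CTCF-AID), so the controls carry the degron as well. ESC auxin cells had received auxin for 48 h and ESC control cells for 0 h. NPC auxin cells were differentiated in the presence of auxin and NPC control cells without it, and both were collected on day 4; the hours of auxin in NPCs are not given in the labels. Auxin was added as 1 µl of a 500 mM stock per ml of medium. Each group had 2 samples but 1 deposited list, and the labels do not say whether the samples were pooled, so no difference between conditions has a replicate check. The other 6 samples, NPCs with dCas9 constructs, were not analysed here. The labels do not say whether the degron line was 1 clone, and the files hold no measure of CTCF protein, so its depletion cannot be checked from them.

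CTCF binds DNA and halts cohesin as it extrudes chromatin, which places loop ends at CTCF sites. Promoters also contact enhancers and other promoters, and some of these contacts are known to persist in cells that lack CTCF. H3K4me3 marks promoters of active genes and, in stem cells, many silent developmental genes that carry Polycomb marks as well.

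The promoters below are examples picked from the named anchors. 1600014C23Rik with Vegfa and Hs1bp3 with Rhob are among the strongest promoter pairs. Zfp36l1 and Kif26a lie in the most connected promoter bins. Cebpb and 0610009B22Rik lie at named pairs whose counts were lower with auxin. Each sequence is the RefSeq stretch of GRCm38.p6 from 250 bases before to 50 bases after the start site, written 5′ to 3′ on the strand of the gene. Capitals mark matches on either strand to the CTCF core motif, the YY1 motif AAGATGGC, the NRF1 motif GCATGCGC, the GC box GGGCGG and the TATA box TATAAA, where overlapping matches run together. The stretches are chr17:45733795-45734094 on the minus strand for 1600014C23Rik, chr17:46032328-46032627 on the minus strand for Vegfa, chr12:8313183-8313482 on the plus strand for Hs1bp3, chr12:8499960-8500259 on the minus strand for Rhob, chr12:80112964-80113263 on the minus strand for Zfp36l1, chr12:112145958-112146257 on the plus strand for Kif26a, chr2:167688665-167688964 on the plus strand for Cebpb and chr11:51688585-51688884 on the minus strand for 0610009B22Rik.
1600014C23Rik: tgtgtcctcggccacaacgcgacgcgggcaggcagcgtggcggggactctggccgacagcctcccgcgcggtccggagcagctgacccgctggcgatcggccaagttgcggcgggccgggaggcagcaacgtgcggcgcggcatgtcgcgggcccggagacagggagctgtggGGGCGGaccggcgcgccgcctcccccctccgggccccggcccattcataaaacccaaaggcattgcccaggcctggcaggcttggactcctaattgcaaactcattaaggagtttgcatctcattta
Vegfa: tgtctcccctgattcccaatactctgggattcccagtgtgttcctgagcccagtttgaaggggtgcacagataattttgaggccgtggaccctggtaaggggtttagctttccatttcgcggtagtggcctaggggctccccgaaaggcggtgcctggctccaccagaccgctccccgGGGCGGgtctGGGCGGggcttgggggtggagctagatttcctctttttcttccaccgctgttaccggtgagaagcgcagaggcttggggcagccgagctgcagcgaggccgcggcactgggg
Hs1bp3: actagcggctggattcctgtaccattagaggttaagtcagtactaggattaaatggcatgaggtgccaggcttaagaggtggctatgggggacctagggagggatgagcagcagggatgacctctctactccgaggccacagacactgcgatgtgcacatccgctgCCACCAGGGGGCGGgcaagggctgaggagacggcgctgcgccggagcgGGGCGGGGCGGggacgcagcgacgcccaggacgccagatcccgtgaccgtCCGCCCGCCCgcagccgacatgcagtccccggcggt
Rhob: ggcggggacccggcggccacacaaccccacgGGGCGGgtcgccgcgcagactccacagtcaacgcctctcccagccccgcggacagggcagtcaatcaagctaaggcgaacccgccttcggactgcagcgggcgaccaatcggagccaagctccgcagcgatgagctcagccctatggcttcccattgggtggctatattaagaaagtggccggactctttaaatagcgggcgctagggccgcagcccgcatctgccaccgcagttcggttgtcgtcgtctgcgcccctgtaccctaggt
Zfp36l1: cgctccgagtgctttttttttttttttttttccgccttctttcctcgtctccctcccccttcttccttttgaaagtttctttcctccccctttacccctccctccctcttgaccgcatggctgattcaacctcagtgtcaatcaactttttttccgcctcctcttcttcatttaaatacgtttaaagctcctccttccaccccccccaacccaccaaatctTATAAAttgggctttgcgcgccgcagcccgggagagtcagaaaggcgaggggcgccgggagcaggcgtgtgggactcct
Kif26a: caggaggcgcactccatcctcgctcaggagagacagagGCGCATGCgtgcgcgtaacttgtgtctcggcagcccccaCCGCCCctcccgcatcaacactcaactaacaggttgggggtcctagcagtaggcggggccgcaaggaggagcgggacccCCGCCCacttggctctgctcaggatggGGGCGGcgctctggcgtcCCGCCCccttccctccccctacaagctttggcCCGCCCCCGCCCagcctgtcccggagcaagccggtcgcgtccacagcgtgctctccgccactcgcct
Cebpb: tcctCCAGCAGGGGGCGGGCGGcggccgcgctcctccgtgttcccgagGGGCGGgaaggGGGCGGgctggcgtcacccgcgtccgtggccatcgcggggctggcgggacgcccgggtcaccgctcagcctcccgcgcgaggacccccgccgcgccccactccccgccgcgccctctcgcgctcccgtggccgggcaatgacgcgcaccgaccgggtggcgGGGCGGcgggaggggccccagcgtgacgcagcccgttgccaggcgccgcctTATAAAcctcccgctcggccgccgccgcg
0610009B22Rik: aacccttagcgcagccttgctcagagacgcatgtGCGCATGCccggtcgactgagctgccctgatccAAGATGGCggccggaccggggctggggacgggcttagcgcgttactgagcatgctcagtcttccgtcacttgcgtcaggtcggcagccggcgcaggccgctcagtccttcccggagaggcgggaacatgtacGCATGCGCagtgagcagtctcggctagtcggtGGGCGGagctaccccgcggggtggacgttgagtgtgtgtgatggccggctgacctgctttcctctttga
Both Cebpb and Hs1bp3 hold a match to the CTCF core motif. 0610009B22Rik holds 1 YY1 and 2 NRF1 motifs, and Zfp36l1 has a TATA box 29 bases before its start. As picked examples, these promoters do not show how common a motif is. Of 2476 promoters at pairs called everywhere, 4.04% held the CTCF core motif. Of 4252 promoters at other pairs of both control lists, 3.57% did.

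The pairs called everywhere made up 21.6% of the 27610 pairs of ESC auxin, 10.5% of the 56714 pairs of ESC control, 14.3% of the 41667 pairs of NPC auxin and 7.19% of the 82861 pairs of NPC control. Of the other pairs, 88834 were called in 1 list, 31097 in 2 and 11336 in 3. The lists themselves end at a count of 12, a ratio to background of 2 and an FDR of 0.01. Just inside these limits lay 82 pairs with a count of 12 in at least 1 list, 520 with a ratio under 2.1 and 138 with an FDR of 0.009 or more. Well inside them, 2700 of the 5954 pairs had at least 30 contacts in every list and 1728 had a ratio of at least 3 in every list. The lowest of a pair's ratios stood in ESC auxin for 2175 pairs, in ESC control for 1008, in NPC auxin for 2322 and in NPC control for 449.

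The median number of contacts was 32 in ESC auxin and 36 in ESC control, and 39 in NPC auxin and 46 in NPC control. In the other pairs of the same lists the medians were 25 in ESC auxin, 25 in ESC control, 24 in NPC auxin and 25 in NPC control. The median ratio to background was 3.0 in ESC auxin and 3.46 in ESC control, and 2.94 in NPC auxin and 3.97 in NPC control. A pair that passed the same limits 4 times had to be stronger than one that passed them once, so these levels describe the choice of the pairs.

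**Figure D1:**
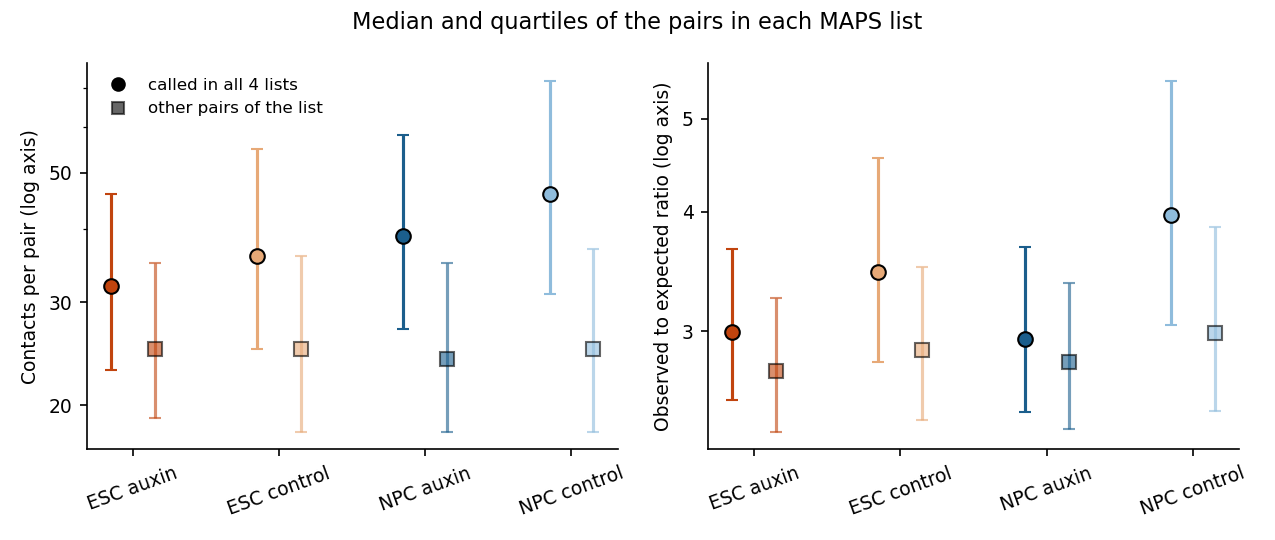
Contacts per pair (left) and ratio of contacts to the background of the caller (right), both on log axes, for the 4 MAPS lists. Circles are the 5954 pairs called in all 4 lists and squares the other pairs of each list, with points at the median and bars from the first to the third quartile; the median count of the pairs called everywhere runs from 32 in ESC auxin to 46 in NPC control, and that of the others lies at 24 or 25.

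Part of the absent pairs had a called neighbour in the list they missed. Among 5453 pairs called in every list except ESC auxin, 50% had a call in that list within 1 bin at both anchors, and the share was 61.4% of 1991 pairs missing only from ESC control, 57% of 3188 missing only from NPC auxin and 70.2% of 704 missing only from NPC control. Of the 13952 pairs called in both controls and in neither auxin list, 29.8% had such a call in ESC auxin, 34.5% in NPC auxin and 45.9% in either. How many such calls would arise from the clustering of calls was not tested. At the exact bins, a second caller, FitHiChIP, called 3.3% of the pairs missing only from ESC auxin in that list. The share was 6.78% for ESC control, 5.11% for NPC auxin and 5.26% for NPC control. Exact bins set a strict rule, and absence from a list is not absence of contact.

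The pairs called everywhere more often joined H3K4me3 peak bins at both ends than pairs called in both controls and in neither auxin list, here named control-only pairs. Both anchors were marked in both cell types in 1976 of the 5954 pairs, or 33.2% (exact 95% interval 32.0 to 34.4), against 16.9% (16.3 to 17.6) of 13952 control-only pairs. The difference of 16.2 percentage points had the same direction on 19 of 19 autosomes, where it ran from 7.21 to 36.2 points. Its size depended on the rule: it was 9.27 points with anchors matched within 1 bin, and with the FitHiChIP lists 2.03 points, or 11.4 on autosomes up to 1000 kb. A further 3958 of the pairs had 1 such anchor, and 20 had none, since their anchors were marked in different cell types. In 1791 pairs called in both auxin lists and neither control list the share was 35.2%. All intervals cover counting error only, and neighbouring pairs share reads and anchors.

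A protein-coding promoter stood at each end of 640 pairs called everywhere, or 10.7%, against 854, or 6.12%, of control-only pairs. A bin counted as a promoter bin only if it held an H3K4me3 peak in some list, so this share is not independent of the mark. Both anchors were marked in 1976 pairs called everywhere and in 2364 control-only pairs. Set against these counts, the 640 promoter pairs are a smaller part than the 854. The promoter share was higher in other sets, at 13.8% of pairs called in both auxin lists and neither control list, 15.5% of those missing only from ESC control and 11.8% of those missing only from NPC control. Against control-only pairs it was higher on 19 of 19 autosomes, by 1.20 to 10.2 points. A further 3425 pairs had a promoter bin at 1 anchor and 1889 had none. In the MAPS lists the median span was 230 kb (quartiles 160 and 350) in pairs called everywhere and 220 kb in control-only pairs, with a higher median on 14 of 19 autosomes, a lower one on 4 and an equal one on 1. With the FitHiChIP lists the difference was 360 kb, or 70 kb on autosomes up to 1000 kb. By class, 404 pairs spanned under 100 kb, 1853 spanned 100 to 200 kb, 3113 spanned 200 to 500 kb and 584 spanned 500 to 1000 kb.

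Of the 28547 pairs called in both control lists, 20.9% were also called in both auxin lists and so in all 4. The share was 43.9% in the strongest of 5 equal classes of control FDR, 23.5, 15.6 and 12% in the next 3, and 9.28% in the weakest. It was 31.3% where both anchors were marked and 17.9% where 1 was. Within the 5 classes of FDR the gap between these was 9.37, 12.1, 10.4, 9.57 and 6.21 points from the strongest class to the weakest, so it was present in each. MAPS is designed to fit its background separately for pairs with both anchors marked and pairs with 1, and the part of this in the gap was not tested.

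By promoters, the share was 28.7% with promoter bins at both anchors, 20.6% with 1 and 19.5% with none. In the class of strongest FDR these shares were 45.5, 44.1 and 43.2%. In the next classes they were 33.1, 22.7 and 22.2%, then 20.8, 16.1 and 13.6%, then 19.4, 12 and 10.4%, and in the weakest 15.9, 8.49 and 9.51%. By distance it was 16.7% under 100 kb, 20.5% at 100 to 200 kb, 21.7% at 200 to 500 kb and 21.3% at 500 to 1000 kb. The GC content of the anchors moved with it, with 16.2% in the lowest of 4 classes and 25.6% in the highest, and the part of base composition was not tested.

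**Figure D2:**
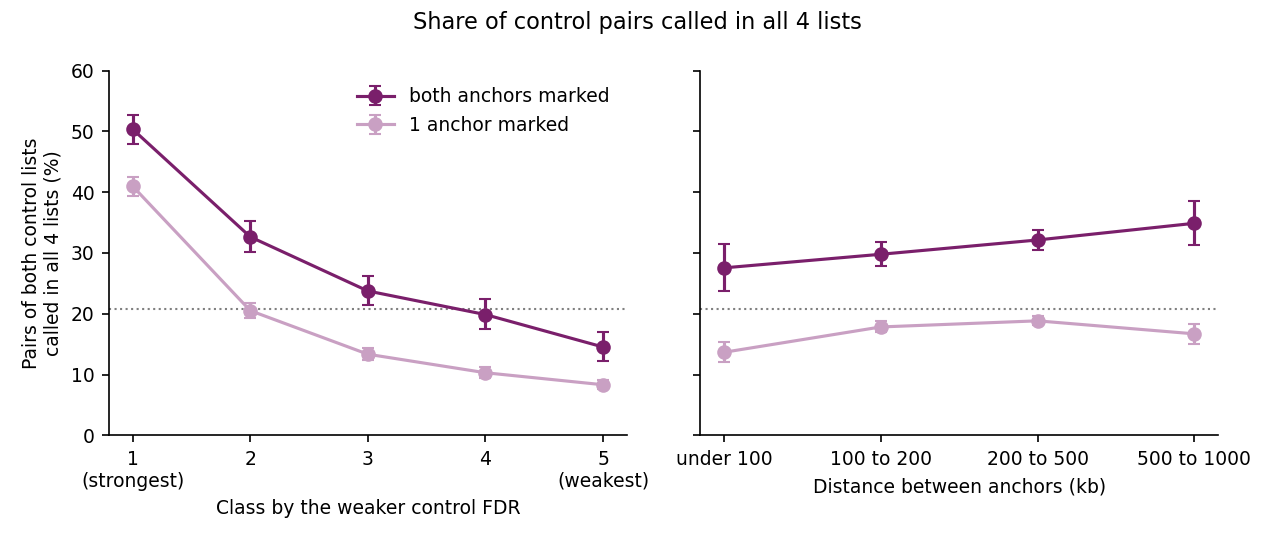
Share in percent of the 28547 pairs of both control lists that were called in all 4 lists, by class of the weaker of the control FDR values (left, 5 classes of equal size) and by distance in kb (right). Dark points are pairs with both anchors marked by H3K4me3 and light points pairs with 1, bars are exact 95% intervals for counting error, and the dotted line is the share of 20.9% over all; dark points lie above light ones in every class.

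The 5954 pairs fell into 3110 groups of neighbours, where both anchors lie within 1 bin of those of another pair, and 2003 groups held 1 pair each while the largest held 38. They used 6674 anchor bins, of which 3476 were marked in both cell types, 349 in ESC lists only, 117 in NPC lists only and 2732 in neither. Most bins, 4422, served 1 pair, and 61 served at least 10. The most connected 5% of the bins, 334 in number, touched 41.4% of the pairs.

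The most connected bin was chr12:80110001-80120000, with the promoter of Zfp36l1, which encodes an RNA-binding protein of messenger RNA decay. Its 26 pairs all ran to the left, 170 to 840 kb away, into the region of Rad51b and Zfyve26. Their contacts summed to 679 in ESC auxin and 703 in ESC control, and to 1476 in NPC auxin and 1825 in NPC control. Sums were thus higher in NPCs than in ESCs. With auxin the sum was lower in NPCs, while the ESC sums lay close together. Short-range reads at this bin were 897 in ESC auxin and 766 in ESC control, and 2853 in NPC auxin and 2841 in NPC control. The part of these reads in the sums was not tested.

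The bin at chr8:26970001-26980000 overlaps Zfp703, a gene for a zinc finger corepressor, and had 24 pairs with 529 contacts in ESC auxin and 499 in ESC control, and 1247 in NPC auxin and 1489 in NPC control. The promoter bin of Kif26a, a kinesin family gene, at chr12:112140001-112150000 had 23 pairs, all to the right, with 1146 contacts in ESC auxin and 1398 in ESC control, and 1943 in NPC auxin and 2117 in NPC control. Ebf1, a transcription factor gene of B cells and neurons, had 20 pairs from its bin at chr11:44610001-44620000, which is 130 to 440 kb from its partners. Their sums were 573 contacts in ESC auxin and 714 in ESC control, and 742 in NPC auxin and 1039 in NPC control. Only the Zfp703 bin among these 4 had more contacts in ESC auxin than in ESC control.

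The other 6 most connected bins were those of Phlda1 (19 pairs), Pitpnc1 and Psmd12 (19), Sqle (19), Dusp4 (18), 1600014C23Rik (18) and Pdgfra (17). Pitpnc1 encodes a lipid transfer protein, Psmd12 a proteasome subunit, Sqle squalene epoxidase of sterol synthesis, Dusp4 a phosphatase of MAP kinases and Pdgfra a growth factor receptor. In each of the 10 bins all partners lay on the same side. The 1600014C23Rik bin reached 8 marked partner bins, with Vegfa, Polh, Xpo5, Gtpbp2, Mad2l1bp, Mrps18a and Rsph9, while the other 9 bins reached 1 to 4 marked partners.

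Peak flags were read only at anchors of called pairs, so a marked bin here is always an anchor of some called pair. Genes with the mark but no called pair are in none of these counts. Of the genes placed in marked bins, 9933 were placed by a start site and 2019 by a gene end. Of 11952 protein-coding genes with a marked promoter bin, 2362 (19.8%) stood at a pair called everywhere, and these were 37.1% of the 6371 genes at any pair of both control lists. Hox genes, which specify position along the body axis, stood at such pairs in 22 of 31 cases, and all 31 had a control pair. Other developmental transcription factors did so in 64 of 150, or 64 of the 119 with a control pair. Lists differ in how many pairs their genes have at all, so each count is given out of the genes with a marked promoter bin and out of those with a pair of both control lists, and no list is called distinct from the background. Genes named from a list are those with the most pairs called everywhere. The median share of a gene's control pairs called everywhere was 0 over all protein-coding genes. It was 20.8% for Hox genes, 9.09% for other developmental factors and 8.33% for neural progenitor genes. Ribosomal protein genes had 25%, and neuronal and imprinted genes 0. Among genes with at least 5 control pairs, the median share was 20% over all 1684 protein-coding genes. There it was 22.2% for 27 Hox genes, 20% for 62 other developmental factors and 33.3% for 9 neural progenitor genes. For 12 ribosomal protein genes it was 33.3%, for 11 imprinted genes 21.4% and for 2 neuronal genes 21.2%.

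The 22 Hox genes spread over all 4 clusters. The Hoxb bins were in 52 of the pairs, the Hoxc bins in 22, the Hoxd bins in 21 and the Hoxa bins in 10, out of 110, 45, 99 and 78 pairs of both control lists. Hoxb8 was in 16 of its 23 pairs of both control lists, Hoxb5 in 12 of 31 and Hoxb4 in 11 of 25. None of the pairs joined one Hox promoter bin to another, so these contacts ran to other bins in reach. Such a pair was also absent among all pairs of both control lists, and any list held only 2. Among the other developmental factors, 23 of 33 such control pairs were called everywhere at Ebf1 over all its promoter bins, 12 of 12 at the LIM homeobox gene Lhx1, 10 of 15 at Foxl1 and 9 of 17 at Cdx2.

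Genes of cell identity came next. Of 20 pluripotency genes with a marked promoter bin, 10 of them with a control pair, 5 stood at a pair called everywhere. Sox2 had 2 of its 10 control pairs called everywhere, Dnmt3l 2 of 4 and Pou5f1 1 of 1. Of 22 neural progenitor genes, 18 with a control pair, 9 did, with 14 of 29 control pairs at the Notch target Hes1, 7 of 21 at Meis2 and 6 of 16 at Sox1. Of 12 neuronal genes, 5 with a control pair, 1 did, Gad1, the enzyme gene of GABA synthesis, with 11 of 26. The Polycomb list had 5 of 26, 15 with a control pair, among them Jarid2 with 3 of 12. The list of CTCF and cohesin genes had 1 of 11, 5 with a control pair, and this was the cohesin subunit gene Smc3 with 5 of 5.

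Among broadly expressed genes, those of cytoplasmic ribosomal proteins stood at pairs called everywhere in 30 of 73 cases, 49 with a control pair. The list of housekeeping genes had 1 of 17, 8 with a control pair, and this was the RNA polymerase II gene Polr2a. Replication-dependent histone genes had 17 of 56, 32 with a control pair. The clustered protocadherins, adhesion genes of neurons, had 13 of 32, all with a control pair. Zinc finger genes had 47 of 290, 119 with a control pair, and imprinted genes 9 of 28, 21 with a control pair, with 10 of 16 control pairs at Mest. Olfactory receptor genes had 1 of 13, 5 with a control pair.

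**Figure D3:**
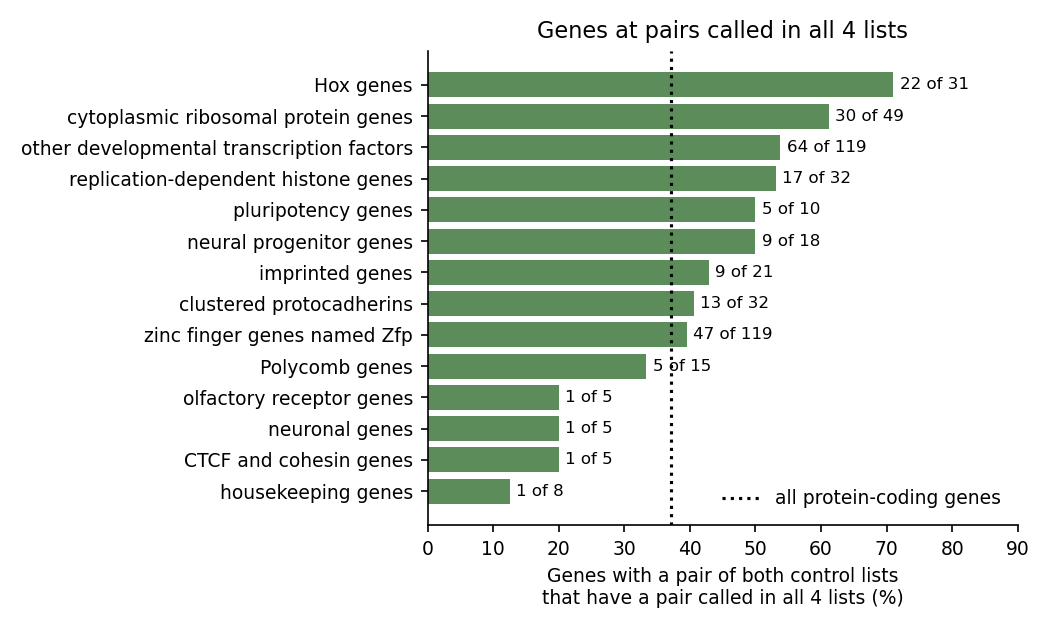
For each gene list, the share in percent of genes with a pair of both control lists that also have a pair called in all 4 lists, with the numbers of genes beside each bar. The dotted line is the share of 37.1% over all protein-coding genes; Hox genes reach 22 of 31 and housekeeping genes 1 of 8.

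Of the 3110 groups, 358 were represented by a pair with protein-coding promoter bins at both anchors, and the 10 of these with the highest lowest ratio are named here. The pair of 1600014C23Rik and Vegfa, the gene of a vascular growth factor, joined chr17:45730001-45740000 to chr17:46030001-46040000 over 300 kb. It had 82 contacts in ESC auxin and 99 in ESC control, and 158 in NPC auxin and 294 in NPC control. Its promoters are printed above, and its unscaled NPC counts exceed its ESC counts whether or not auxin was given. By the ratio to background, NPCs were higher only without auxin, at 13.4 against 8.94 for ESCs. With auxin this ratio was 6.70 for NPCs and 6.93 for ESCs. Short-range reads at the 1600014C23Rik bin were higher for NPCs too, at 919 against 497 with auxin and 896 against 398 without. Their part in the counts of this pair was not tested. The log2 ratio of auxin to control was -0.27 in ESCs (exact 95% interval for counting error -0.71 to 0.17) and -0.90 in NPCs (-1.18 to -0.61).

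Hs1bp3 and Rhob, a small GTPase gene, lie 190 kb apart at chr12:8310001-8320000 and chr12:8500001-8510000. Their pair had 38 contacts in ESC auxin and 54 in ESC control, and 72 in NPC auxin and 117 in NPC control. The log2 ratio was -0.51 in ESCs (-1.15 to 0.12) and -0.70 in NPCs (-1.14 to -0.26). Crlf2, a cytokine receptor gene, and the bin of Gtpbp6 and Plcxd1 had 51 contacts in ESC auxin and 66 in ESC control, and 117 in NPC auxin and 144 in NPC control over 550 kb.

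Auxin and control counts lay closer together at Fosl2 and Adh5. Fosl2, an AP-1 transcription factor gene, and the bin of Babam2 and Rbks, 440 kb apart, had 42 contacts in ESC auxin and 41 in ESC control, and 101 in NPC auxin and 119 in NPC control. Adh5, an enzyme gene of formaldehyde oxidation, and 4930579F01Rik had 41 in ESC auxin and 43 in ESC control, and 91 in NPC auxin and 88 in NPC control. Fam43a and Xxylt1, a xylosyltransferase gene, had 18 in ESC auxin and 23 in ESC control, and 42 in NPC auxin and 43 in NPC control over 490 kb. In these 3 pairs both NPC counts lay above both ESC counts.

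Stat6, the transcription factor gene of interleukin-4 signalling, and Prim1, the primase catalytic subunit gene, had 34 contacts in ESC auxin and 40 in ESC control, and 45 in NPC auxin and 35 in NPC control. The remaining 3 pairs lie in repeated sequence, with a mappability of 56.2% to 68.3% at the poorer anchor. Zfp994 with Gm7072 had 17 in ESC auxin and 14 in ESC control, and 28 in NPC auxin and 23 in NPC control in the MAPS lists, but 331 in ESC auxin and 273 in ESC control, and 573 in NPC auxin and 595 in NPC control in the FitHiChIP lists. LOC115490200 with Zfp932 differed between callers in the same way, with 21 and 644 contacts in ESC auxin, and Gm10499 with the class Ib histocompatibility gene H2-T3 was not called by FitHiChIP. Counts at near-identical copies of a gene are uncertain, since reads can be split or dropped.

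Low mappability was frequent among the highest ratios in general. Of the 20 groups with the highest lowest ratio, 10 had a mappability under 80% at an anchor, against 99 of all 3110 groups. The very highest lay on chr4 between the bins at 145430001 and 146050001, with ratios of at least 22.1 in every list and a mappability of 64.7%. Among pairs of both control lists, 29.8% of the 520 with a mappability under 80% and 20.7% of the 28027 others were called in all 4.

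Under 200 kb, the pairs with the highest lowest count over the 4 lists stood largely in bins of transfer RNA genes and other noncoding RNA genes. Between chr13:21970001-21980000 and chr13:22020001-22030000, both holding transfer RNA genes, there were 310 contacts in ESC auxin and 382 in ESC control, and 348 in NPC auxin and 485 in NPC control. A second pair of transfer RNA bins on that chromosome, at 23290001 and 23400001, had 277 in ESC auxin and 274 in ESC control, and 209 in NPC auxin and 227 in NPC control. Malat1 and Neat1, long noncoding RNAs of nuclear bodies 40 kb apart on chr19, had 298 in ESC auxin and 277 in ESC control, and 294 in NPC auxin and 277 in NPC control. The bin of Abt1, a gene for an activator of basal transcription, and a bin of transfer RNA genes 100 kb away had 320 in ESC auxin and 411 in ESC control, and 265 in NPC auxin and 434 in NPC control. Of these 4 pairs, that of Malat1 and Neat1 had counts closest together, from 277 to 298.

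At 30 kb, Pcbp1, an RNA-binding protein gene, had 334 contacts with a bin of the noncoding gene Gm52866 in ESC auxin and 330 in ESC control, and 311 in NPC auxin and 285 in NPC control. On chr17, bins of noncoding genes at 27210001 and 27320001 had 440 in ESC auxin and 398 in ESC control, and 264 in NPC auxin and 227 in NPC control. In both pairs the unscaled auxin count was the higher one in each cell type, but every exact 95% interval of the log2 ratio includes 0. The ratio to background at Pcbp1 was 2.30 in ESC auxin and 2.66 in ESC control, and 2.31 in NPC auxin and 2.32 in NPC control. At the chr17 pair it was 4.29 in ESC auxin and 4.30 in ESC control, and 4.14 in NPC auxin and 3.88 in NPC control.

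At 200 kb and more, the pairs named by the same rule included homeobox genes. Irx3 and a bin in Irx5, Iroquois transcription factor genes 560 kb apart on chr8, had 57 contacts in ESC auxin and 92 in ESC control, and 69 in NPC auxin and 83 in NPC control. Irx2 and a bin in Irx1, 660 kb apart on chr13, had 81 in ESC auxin and 104 in ESC control, and 80 in NPC auxin and 68 in NPC control. The promoter of Meis2 and a bin in the same gene 200 kb away had 112 in ESC auxin and 125 in ESC control, and 141 in NPC auxin and 153 in NPC control. A bin in Hoxc9 and the bin at chr15:103180001-103190000 had 103 in ESC auxin and 127 in ESC control, and 119 in NPC auxin and 124 in NPC control. Of the 4, Irx3 with Irx5 in ESCs had the lowest log2 ratio of auxin to control, at -0.69 (-1.19 to -0.20).

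First by this rule at 200 to 500 kb was the pair of Cebpb, a bZIP transcription factor gene, at chr2:167680001-167690000 and the bin at chr2:167890001-167900000, in which the RefSeq table names no gene. It had 117 contacts in ESC auxin and 264 in ESC control, and 116 in NPC auxin and 339 in NPC control. The auxin counts are alike in both cell types and lie under both control counts. The log2 ratio was -1.17 in ESCs (-1.50 to -0.85) and -1.55 in NPCs (-1.86 to -1.24), yet the pair was still called with a ratio to background of 8.99 in ESC auxin and 6.53 in NPC auxin, against 17.0 in ESC control and 24.7 in NPC control.

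Over the 5954 pairs, contacts were lower with auxin at 3801 (63.8%) in ESCs, beside 58.9% of all pairs shared by both ESC lists, and at 3963 (66.6%) in NPCs, beside 54.2% of all pairs shared by both NPC lists. The median log2 ratio of auxin to control was -0.16 in ESCs, beside -0.11 over all 12979 pairs shared by both ESC lists, and -0.21 in NPCs, beside -0.07 over 22391 shared by both NPC lists. Scaled by the total contacts of the libraries, the medians were -0.19 in ESCs, beside -0.13 over all shared pairs, and -0.40 in NPCs, beside -0.27. The direction depended on the set of pairs. Over the pairs in all 4 FitHiChIP lists, a different set, the median was 0.0099 in ESCs and 0 in NPCs. On autosomes up to 1000 kb that median was 0 in ESCs and -0.020 in NPCs. At the 1822 pairs called in all 4 lists of both callers, FitHiChIP counts gave -0.13 in ESCs and -0.20 in NPCs. MAPS counts of the same 1822 pairs gave -0.17 and -0.22. Short-range reads, not scaled by total contacts, had medians above 0 at the anchor bins of the 5954 pairs. The median log2 ratio was 0.26 in ESCs and 0.09 in NPCs at 3476 marked bins. At the 2732 unmarked bins it was 0.37 in ESCs and 0.20 in NPCs. Total contacts were 59961568 in NPC auxin and 52337421 in NPC control, so the unscaled reads give no direction in NPCs. The part of these reads in the contact counts was not tested.

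A count lower by at least 1.5-fold with auxin was found at 1080 pairs (18.1%) in ESCs, where 13.7% of all shared pairs had one, and at 1343 (22.6%) in NPCs, where 15.0% did. A count higher by as much was found at 149 pairs (2.50%) in ESCs, beside 2.24% of all shared pairs, and at 186 (3.12%) in NPCs, beside 4.12%. The calls chose the pairs in these same contrasts, so nothing is read from the shares. Contacts were lower in both cell types at 2847 pairs and higher in both at 870. They were lower by at least 1.5-fold in both at 610 and higher by as much in both at 18. Across the 5954 pairs, which share libraries and anchors, the log2 ratios of ESCs and NPCs had a Pearson r of 0.48 and a Spearman rho of 0.44.

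**Figure D4:**
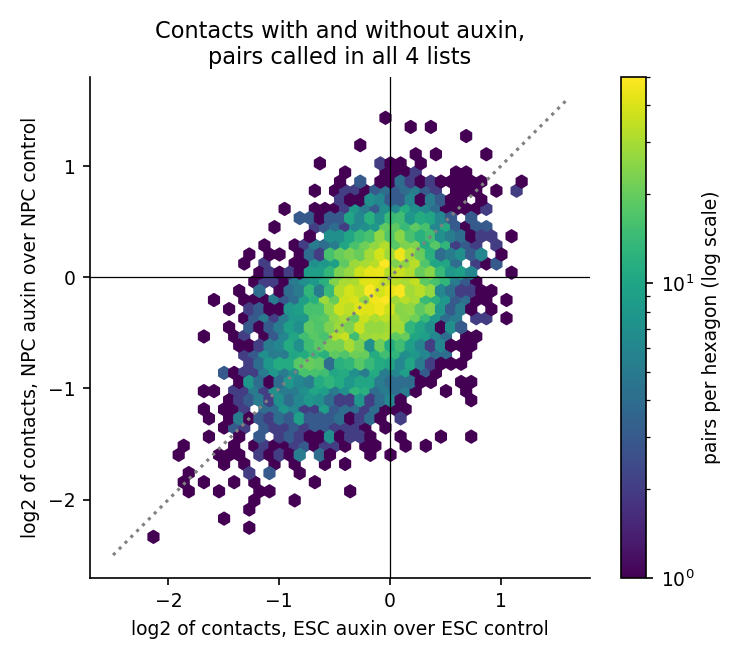
Log2 ratio of contacts in auxin to control in ESCs (horizontal) and NPCs (vertical) for the 5954 pairs called in all 4 lists, with the number of pairs per hexagon in colour on a log scale. The black lines mark no difference and the dotted line equal ratios; 2847 pairs lie on the lower left of their crossing and 870 on the upper right.

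The medians below 0 were found in every class of pair. In ESCs the median log2 ratio was -0.11 at pairs with promoter bins at both anchors, -0.16 with 1 and -0.18 with none, and in NPCs it was -0.15, -0.23 and -0.19. In the distance classes from short to long it was -0.18, -0.20, -0.15 and -0.10 in ESCs and -0.16, -0.22, -0.21 and -0.23 in NPCs.

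Among 206 promoter pairs with the same direction in both cell types, 133 were lower and 73 higher with auxin. The lowest by the mean log2 ratio was that of Fam214b and Fam166b, 380 kb apart on chr4, with 22 contacts in ESC auxin and 53 in ESC control, and 25 in NPC auxin and 54 in NPC control. Nhp2, a gene of small nucleolar ribonucleoproteins, and 0610009B22Rik had 97 in ESC auxin and 237 in ESC control, and 107 in NPC auxin and 212 in NPC control over 70 kb. Mertk, a receptor tyrosine kinase gene of phagocytosis, and Tmem87b had 89 in ESC auxin and 177 in ESC control, and 150 in NPC auxin and 341 in NPC control over 120 kb. Prxl2c and the kinase gene Cdk20 had 49 in ESC auxin and 86 in ESC control, and 55 in NPC auxin and 161 in NPC control. Ube2l3, a ubiquitin-conjugating enzyme gene, and Tmem191c had 96 in ESC auxin and 188 in ESC control, and 195 in NPC auxin and 399 in NPC control. In all 5 the auxin counts lie under the control counts of the same cell type, with log2 ratios from -1.29 to -0.81 in ESCs and from -1.55 to -0.99 in NPCs.

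Pairs with more contacts in auxin were fewer. The highest joined the bin of Fbxo38 and Spink10 to Napg, a gene of vesicle fusion, 430 kb apart, with 40 contacts in ESC auxin and 17 in ESC control, and 68 in NPC auxin and 38 in NPC control. Echs1, an enzyme gene of fatty acid oxidation, and the bin of Bet1l and Ric8a had 33 in ESC auxin and 15 in ESC control, and 43 in NPC auxin and 25 in NPC control over 740 kb. Ccnd1, the cyclin D1 gene, and Mrgprf had 36 in ESC auxin and 20 in ESC control, and 32 in NPC auxin and 21 in NPC control. Sec16a, a gene of endoplasmic reticulum exit sites, and the bin of Med22, Rpl7a and Surf1 had 39 in ESC auxin and 30 in ESC control, and 65 in NPC auxin and 36 in NPC control. The bin of Cyb5d1, Naa38 and Tmem88 and that of Wrap53, a telomerase trafficking gene, had 72 in ESC auxin and 44 in ESC control, and 81 in NPC auxin and 57 in NPC control. These 10 pairs were chosen as extremes, so their ratios are a description of size.

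**Figure D5:**
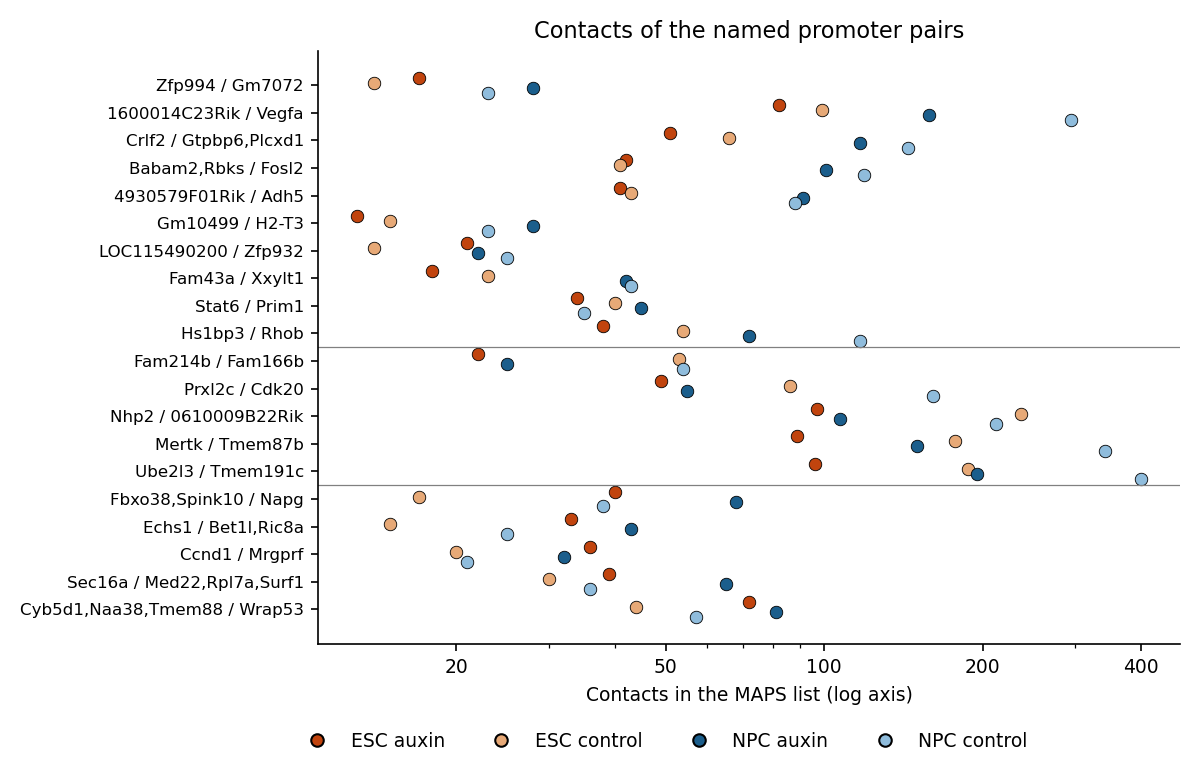
Contacts in the 4 MAPS lists on a log axis for the 10 promoter pairs with the highest lowest ratio (top), the 5 lowest (middle) and the 5 highest (bottom) by auxin to control. Each point is the count of 1 list; in the middle block every auxin point lies left of the control point of its cell type, and in the bottom block right of it.

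Pairs called everywhere had more contacts in NPC control than in ESC control. The median log2 ratio was 0.30, beside 0.19 over all 28547 pairs of both control lists, and 0.16 when scaled by total contacts, beside 0.053. It was 0.58 with promoter bins at both anchors, 0.40 with 1 and 0 with none. Short-range reads at the marked anchors were higher in NPC control too, by a median of 0.99 on the log2 scale against 0.48 at unmarked anchors, and their part in the contact counts was not tested. Reads covering the promoter bins of marker genes in the FitHiChIP lists gave a mixed check of the labels. Sox1, a neural progenitor gene, had 13285 reads in NPC control and 6085 in ESC control, and the pluripotency gene Nanog 3853 in NPC control and 6118 in ESC control. Divided by the total contacts of the library, 4 of 6 neural progenitor bins, 2 of 4 pluripotency bins and 5 of 6 bins of endoderm and mesoderm genes were higher in NPC control, the endoderm gene Gata6 with 21439 reads against 5795 in ESC control. The part of other cell types in the NPC lists was not tested.

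FitHiChIP, a second caller run on the same libraries and so no replicate, called 48.0% of the 5954 pairs in ESC auxin, 64.0% in ESC control, 45.5% in NPC auxin and 71.1% in NPC control. Of the other MAPS pairs it called 23.7% in ESC auxin, 25.9% in ESC control, 22.3% in NPC auxin and 30.1% in NPC control. It called 1822 of the pairs in all 4 of its lists and 1067 in none. Both anchors were marked in 75% of the 1822 and in 1.41% of the 1067, so the pairs that FitHiChIP listed throughout mostly had the mark at both ends and those it never listed rarely did. At the 1822, its contact counts gave a median log2 ratio of auxin to control of -0.13 in ESCs and -0.20 in NPCs, and the MAPS counts of the same pairs -0.17 and -0.22.

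The 2476 promoters at pairs called everywhere were set beside 4252 promoters at other pairs of both control lists, and each motif was searched on both strands. The CTCF core motif was found in 4.04% (3.30 to 4.89) against 3.57% (3.04 to 4.18), and in 2.50% of all 20084 promoters of the table. The YY1 motif was found in 4.56% (3.78 to 5.46) against 3.39% (2.86 to 3.98), beside 3.06% of all, and the NRF1 motif in 4.36% against 4.23%, beside 3.55%. The table's 7645 unmarked promoters lower these totals. They lie in no bin flagged as a peak at an anchor of a called pair, so some may carry the mark. In 5711 other marked promoters the shares were 2.91% for the CTCF core, 3.82% for YY1 and 5.38% for NRF1. The GC box stood in 63.2% against 60.5%, beside 63.4% of other marked promoters and 47.0% of all, and the TATA box in 7.23% against 7.50%, beside 6.85% of other marked promoters and 12.7% of all. The intervals overlap for the CTCF and YY1 motifs, and the median GC content was 61.0% against 60.7%. The unmarked anchor bins, 2732 in number, have no sequence here and were not searched, and 54.3% of them overlap a protein-coding gene.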

How the data were processed

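H3K4me3 PLAC-seq lists of 4 groups were used, 1 list per group from each of 2 callers, MAPS and FitHiChIP, as the labels' file names give them. Per the submitters' processing notes, BWA, Picard and the build mm10 were used, with no versions given. Per the file headers, each line holds a count of contacts between bins of 10 kb, the contacts expected under the caller's model (a signal), the ratio of both and an FDR or q-value, all as deposited by the authors; peak-bin flags, GC content, mappability and short-range reads per bin are the authors' as well. In the deposited MAPS lists counts were at least 12, distances 20 to 1000 kb and chromosomes the 19 autosomes. Total contacts of a library, 47519917 to 59961568, were the FitHiChIP expected contacts divided by their deposited probability.

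From these, pairs with the same bins in all 4 MAPS lists were taken with Python 3.11.15, pandas 2.3.3, NumPy 2.4.6, SciPy 1.17.1 and matplotlib 3.10.9, checked on simulated lists. Start sites came from RefSeq (GRCm38.p6); 9933 genes were placed by a start site and 2019 by a marked gene end. Intervals are exact (Clopper-Pearson, 95%), for ratios of counts from the split of the 2 counts, and cover counting error only. With 1 list per group no test of conditions was possible. Named were the 10 promoter pairs with the highest lowest ratio, the 3 pairs with the highest lowest count in each of 4 distance classes, the 10 most connected bins, and the 5 promoter pairs lowest and the 5 highest by mean log2 ratio. From each gene list, up to 4 genes with the most pairs called everywhere were named. FDR classes, promoter classes, distance classes and neighbour groups were compared, and other callers, limits and scalings were tried. The pairs and gene lists were chosen with earlier results of these data known.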

Additional observations from a re-analysis of the deposited data

Results flagged for a closer look

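Each of the following named pairs moved in opposite directions with auxin in the 2 cell types, which was not tested, since each group has 1 list. On the log2 scale of auxin over control, Fosl2 with Babam2 and Rbks had 0.035 in ESCs and -0.24 in NPCs, Adh5 with 4930579F01Rik -0.069 in ESCs and 0.05 in NPCs, H2-T3 with Gm10499 -0.21 in ESCs and 0.28 in NPCs, and Zfp932 with LOC115490200 0.58 in ESCs and -0.18 in NPCs. Stat6 with Prim1 had -0.23 in ESCs and 0.36 in NPCs, the transfer RNA bins of chr13 at 23290001 and 23400001 had 0.016 in ESCs and -0.12 in NPCs, the bins of chr4 at 145430001 and 146050001 had 0.27 in ESCs and -0.28 in NPCs, and Irx2 with the bin in Irx1 had -0.36 in ESCs and 0.23 in NPCs. In every one of these 8 pairs the exact 95% interval for counting error includes 0 in both cell types.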

How the results depend on the processing

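No paired analysis was possible because each group has 1 deposited list. Of 50 values under 8 settings, 22 stayed near the reported ones. The number of pairs called in all 4 lists was 2519 with FDR under 1e-04, 27329 with anchors matched within 1 bin, 3638 without the 751 bins that hold the most pairs, and 3110 with 1 pair per group of neighbours. The share with both anchors marked was 41.8% with FDR under 1e-04, 22.5% within 1 bin, 45.7% in the FitHiChIP lists (56.1% on autosomes up to 1000 kb, a setting chosen after seeing the data) and 37.8% with 1 pair per group. Its difference from control-only pairs was 9.27 points within 1 bin and 2.03 points in the FitHiChIP lists (11.4 on autosomes up to 1000 kb). The share with promoter bins at both anchors was 12.7% with FDR under 1e-04, 7.75% within 1 bin, 16.7% with FitHiChIP (21.8% on autosomes up to 1000 kb) and 14.5% with 1 pair per group. The median distance was 190 kb with FDR under 1e-04 and 610 kb with FitHiChIP (310 kb), and its difference from control-only pairs 360 kb (70 kb). The median log2 ratio of auxin to control was 0.0099 in ESCs over the pairs of the FitHiChIP lists (0 on autosomes up to 1000 kb). In NPCs it was -0.26 with FDR under 1e-04, -0.40 scaled by total contacts, -0.41 from ratios to background, and 0 with FitHiChIP (-0.020); the cause was not tested. Counts of 12 to 30 contacts limit single pairs.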
